A study of Mus musculus with 4 samples.

Results

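The 10 genes described here, Atf4, Ddit3, Trib3, Chac1, Slc7a11, Asns, Phgdh, Psat1, Sesn2 and Ddit4, form the best known core of the integrated stress response. They were named from the known pathway, with earlier results of these data in view, and are 10 of the 25239 gene symbols counted. The counts came from polyadenylated RNA of mouse embryonic stem cells (mESC), all of genotype Ogt fl/fl, in which loxP sites flank the gene of O-GlcNAc transferase (OGT), the enzyme that attaches N-acetylglucosamine to serine and threonine of intracellular proteins. The Ogt iKO (induced knockout) group comprised 2 libraries from cells cultured for 6 days with 4-hydroxytamoxifen (4-OHT), and the control group 2 libraries from cells cultured for the same time without it. Both groups grew in medium with LIF and serum replacement on mitomycin C-treated fibroblast feeders, and per the labels viable cells were sorted to leave out the feeders. The labels give the Thy1 antigen as the mark of the stem cells and that of Epcam as the mark of the feeders, although Thy1 is known from fibroblasts and Epcam from stem cells, so how far feeders were removed is uncertain. Sorting for a yellow fluorescent protein was described for the treated cells alone, and the labels describe no cells given 4-OHT with an intact Ogt, so effects of the ligand, the recombinase or that gate cannot be told apart from loss of OGT. The labels number the replicates without saying that they came from separate cultures. The p-values therefore measure the spread between these libraries, which may be technical.

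In the integrated stress response, 4 kinases that sense different stresses phosphorylate the translation factor eIF2α. Bulk protein synthesis then slows, while the mRNA of the transcription factor ATF4 is translated better because of short upstream reading frames in its leader. ATF4 binds C/EBP-ATF composite elements and raises genes for amino acid synthesis, amino acid import and tRNA charging, together with the factor CHOP (Ddit3) and feedback inhibitors. ATF4 activity also follows growth signalling through mTORC1. The libraries measured mRNA only. Phosphorylation of eIF2α and the amount of ATF4 protein were not measured.

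The composite element was looked for in RefSeq promoter windows of GRCm38.p6, from 250 bases before to 50 bases after each annotated gene start. The letters searched were TGATGNAAN on both strands, and all 10 genes had at least 1 window, 11 windows in all. A match was present for 4 of the 10 genes (Asns, Chac1, Slc7a11 and Trib3), in 4 of the 11 windows. Of all 32851 mouse windows, 3.95% held it. The stricter letters TGATGNAAT matched no window of the 10 genes and 0.965% of all windows. A related form, TGACGNAAN, matched the Chac1 window and 1.59% of all windows. Such matches describe the letters in these windows and are not evidence of binding.

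The bases before the start in the promoter table are given for the 3 genes with a match there, 5′ to 3′ on the gene's strand, with every match to either TGATGNAAN or TGACGNAAN in capitals. They show the element in 1 gene that fell about 4-fold (Chac1), 1 that fell less (Asns) and 1 with low counts (Slc7a11). The windows are chr2:119350992-119351241 on the plus strand for Chac1, chr6:7693210-7693459 on the minus strand for Asns and chr3:50443614-50443863 on the minus strand for Slc7a11.
Chac1: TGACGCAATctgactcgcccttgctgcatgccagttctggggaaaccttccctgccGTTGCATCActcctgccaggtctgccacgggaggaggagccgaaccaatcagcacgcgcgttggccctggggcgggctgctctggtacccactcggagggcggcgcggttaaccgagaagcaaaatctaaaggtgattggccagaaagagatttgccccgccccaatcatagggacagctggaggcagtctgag
Asns: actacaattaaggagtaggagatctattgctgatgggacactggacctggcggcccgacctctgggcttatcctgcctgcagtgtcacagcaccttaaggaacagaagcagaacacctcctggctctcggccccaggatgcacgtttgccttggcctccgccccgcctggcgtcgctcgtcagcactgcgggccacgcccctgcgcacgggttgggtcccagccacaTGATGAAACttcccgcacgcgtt
Slc7a11: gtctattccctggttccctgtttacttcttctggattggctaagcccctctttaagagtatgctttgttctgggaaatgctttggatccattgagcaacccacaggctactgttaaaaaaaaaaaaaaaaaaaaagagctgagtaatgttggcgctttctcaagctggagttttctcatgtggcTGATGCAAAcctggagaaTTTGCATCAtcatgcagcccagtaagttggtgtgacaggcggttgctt

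Positions are counted from the RefSeq start and depend on the annotation. The Asns match began 23 bases before that start, but the nearest GENCODE M21 transcript start lies 45 bases further upstream, so that the match falls inside that transcript. Slc7a11 held 2 matches in opposite orientation, beginning 66 and 48 bases before the start in the promoter table. That start, at 50443613, lies 55474 bases inside the RefSeq gene record of Slc7a11, which ends at 50499087, and 1 base from the nearest transcript start in GENCODE M21. Chac1 held the composite element 194 bases before its start on the opposite strand and the related form 250 bases before. In Trib3 the match lay at bases 14 to 22 counted from the RefSeq start, on the opposite strand, and before the nearest GENCODE M21 start, which is 28 bases further downstream. It is given with 10 bases on each side (chr2:152344029-152344057, minus strand).
Trib3: ttagctcaggTTTACATCAgccgggcggg

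The total count per library was 14668489 to 16504204. Ogt was counted 437 and 389 times in the Ogt iKO libraries and 2963 and 3108 times in the controls, so the libraries matched their labels (log2 fold change -2.96, SE 0.0676, and 2.49e-07 as the p of edgeR's quasi-likelihood test, adjusted by the Benjamini-Hochberg method as are all p-values here). All 15 stem cell markers listed were detected in every library, with Pou5f1 at 489 and 575 CPM (counts per 1000000 counts, after trimmed-mean, or TMM, scaling) in Ogt iKO and 894 and 850 CPM in control. Of them 14 were lower and 0 higher in Ogt iKO (median log2 fold change -0.63), and their summed level was 3419 and 3831 CPM against 5981 and 5947 CPM. Of the 2 most abundant, Pou5f1, with 14.1% of its exon length under an antisense exon, changed by -0.71 and Tdgf1 by -1.13. The 24 genes listed as fibroblast markers summed to 5498 and 2391 CPM in replicates 1 and 2 of Ogt iKO, and to 2773 and 3157 CPM in the controls, with none at 0. With all 4 libraries 6 were higher and 0 lower (median 0.28), but 17 were lower without Ogt iKO replicate 1 and 22 higher without Ogt iKO replicate 2. Wherever a library is left out, the library remaining in its group is assumed to vary like the other group, whose 2 libraries alone give the spread. The list did not move as one. In 17 markers, Col1a1 among them (904 and 180 CPM against 294 and 314 CPM, given after its values were seen), Ogt iKO replicate 1 lay above both controls and replicate 2 below both. In the 6 called higher (Pdgfrb, Acta2, Tagln, Sparc, Lox and Twist1, likewise listed after their values were seen) both Ogt iKO libraries lay above both controls, but a robust spread called 3 higher. The Tagln count is uncertain, as 67.9% of its exon length overlaps antisense exons. How much of this RNA came from feeders was not tested. The 2 most abundant were Fn1 (1099 and 785 CPM against 1021 and 1219 CPM) and Sparc (812 and 565 CPM against 380 and 399 CPM). In bulk RNA, fewer cells of a type and less RNA per cell cannot be told apart.

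Of the 10 genes, 7 fell and 2 rose at the threshold of 0.05 on the adjusted p, and 1 did not pass. All 10 passed the filter on low counts. Psat1 and Chac1 fell to 25.0% and 25.9% of control, Atf4, Asns and Trib3 to between 53.3% and 56.7%, and Phgdh and Sesn2 by less. Ddit3 and Ddit4 rose. Among all 14525 genes tested, 32.0% were lower, 33.2% higher and 65.3% called in either direction, so a call by itself is common in these data. The groups did not overlap for 9 of the 10 genes, against 83.2% of all genes tested. The median log2 fold change of the 10 genes was -0.61, beside 0.024 for all genes tested. With libraries scaled by their totals these medians were -0.44 and 0.19. Without Ogt iKO replicate 1 the median of the 10 genes was -0.81.

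Scaling set the size of small changes. With libraries scaled by their totals alone, the median of all genes moved from 0.024 to 0.19, and the calls moved from 4827 higher and 4651 lower (50.9% higher) to 6116 higher and 3282 lower (65.1% higher). Changes below are relative to the bulk of genes unless stated. Among the 10 genes only Sesn2 lost its call under that scaling, and none changed sign.

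**Figure D1:**
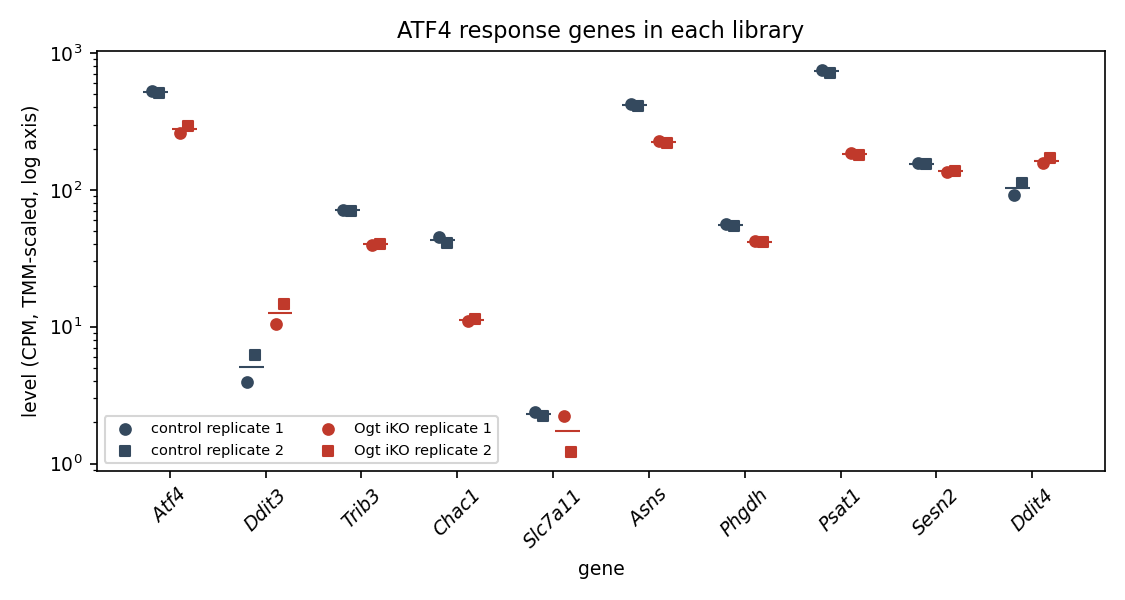
Level of each of the 10 genes in CPM (TMM-scaled, log axis) in every library. Circles and squares are replicates 1 and 2, and short lines are group means. For Atf4, Trib3, Chac1, Asns, Phgdh, Psat1 and Sesn2 both Ogt iKO libraries lay below both controls, for Ddit3 and Ddit4 above, and for Slc7a11 the groups overlapped.

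Atf4, on chromosome 15 from 80255184 to 80257545 (GRCm38), encodes the central transcription factor of the response. It was counted 4478 and 4558 times in Ogt iKO and 8205 and 7856 times in control. Its level was 262 and 294 CPM in the Ogt iKO libraries against 530 and 512 CPM in the controls. Both treated libraries were low and the groups were well apart. The control mean of 521 CPM ± 12.7 (SD, n = 2) compares with 278 CPM ± 22.6 (SD, n = 2) after treatment, so Atf4 fell to 53.3%, or by 0.91 on the log2 scale (SE 0.0683, edgeR adjusted p 1.24e-05). A change at or below this was seen for 7.62% of genes tested.

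Ddit3, on chromosome 10 from 127290793 to 127296291, encodes CHOP, a partner of ATF4 that is linked to cell death in prolonged stress. It went the other way. Its counts were 179 and 229 in Ogt iKO and 61 and 96 in control, or 10.5 and 14.8 CPM against 3.94 and 6.26 CPM. The groups did not overlap, although replicates of each group were further apart, relative to their mean, than for Atf4. The log2 fold change was 1.30 (SE 0.252, 95% interval 0.73 to 1.88, adjusted p 0.00192, edgeR), and it ran from 1.00 to 1.66 when 1 library was left out. Of the Ddit3 exon model, 81 of 1713 bases overlap exons annotated on the opposite strand, among them those of Mars1, and whether the counting used strand is not given in the sources used here. Mars1, the methionyl-tRNA synthetase, had 241 and 256 CPM in Ogt iKO and 424 and 411 CPM in control, a change opposite to that of Ddit3.

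Trib3, on chromosome 2 from 152337425 to 152344060, encodes a pseudokinase that ATF4 and CHOP induce and that restrains them in turn. Its counts were 681 and 629 in Ogt iKO and 1107 and 1077 in control. The corresponding levels were 39.8 and 40.6 CPM against 71.5 and 70.2 CPM, with both replicates of each group close together. The log2 fold change of Trib3 was -0.82 (SE 0.0732, adjusted p 2.92e-05, edgeR).

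Chac1, on chromosome 2 from 119351242 to 119354326, encodes an enzyme that breaks down glutathione and is a known target of ATF4. It fell from 700 and 632 counts in control to 188 and 176 in Ogt iKO. In CPM this was 45.2 and 41.2 against 11.0 and 11.3, so the controls were high and the treated libraries uniformly low. The log2 fold change was -1.95 (SE 0.0982, adjusted p 1.96e-06, edgeR), with 0.950% of genes tested at or below it.

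Slc7a11, on chromosome 3 from 50364936 to 50499087, encodes the cystine importer of system xc- and answers to NRF2 as well as to ATF4. Its counts were low, at 38 and 19 in Ogt iKO and 37 and 34 in control. Levels were 2.22 and 1.22 CPM against 2.39 and 2.22 CPM, and the groups overlapped. The log2 fold change of -0.41 did not pass (SE 0.324, adjusted p 0.297, edgeR), and its 95% interval of -1.14 to 0.33 includes changes as large as that of Atf4. Its counts are also uncertain because its transcript shares 585 bases at 92.5% identity with that of the tubulin gene Tuba1b and 568 bases at 92.1% with a long noncoding RNA. The higher of the treated libraries was replicate 1, which also had the highest summed fibroblast marker level. Without it the log2 fold change was -0.90 (adjusted p 0.0574), and without Ogt iKO replicate 2 it was -0.08. The part of feeder RNA in these values was not tested.

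**Figure D2:**
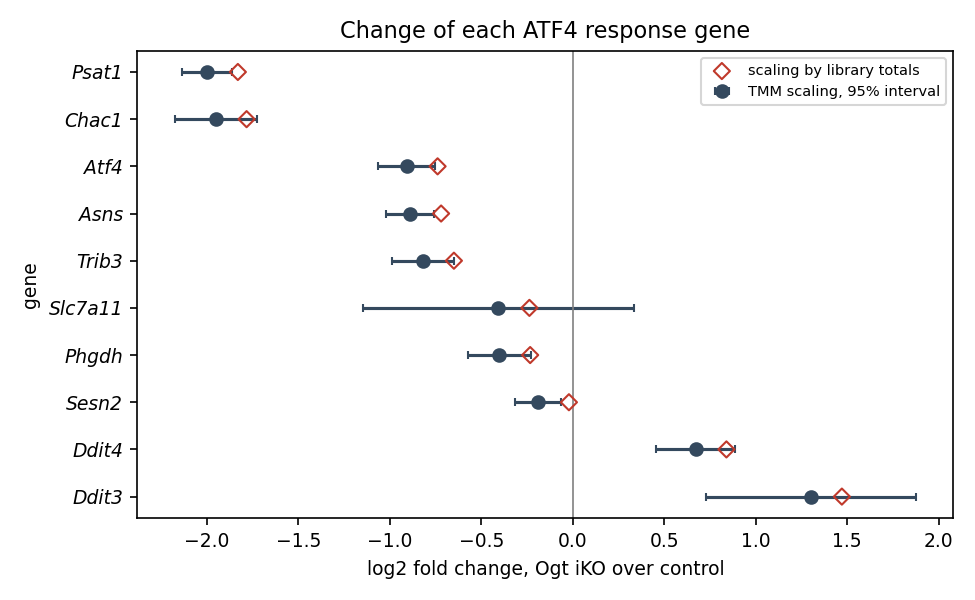
Log2 fold change of each gene, Ogt iKO over control, with its 95% interval under TMM scaling (filled circles) and the value with libraries scaled by their totals (open diamonds). Psat1 and Chac1 lie near -2, Atf4, Asns and Trib3 between -0.91 and -0.82, and Ddit4 and Ddit3 above 0. The interval of Slc7a11 spans 0, and the diamond of Sesn2 lies at -0.02.

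Asns, on chromosome 6 from 7675165 to 7693209, encodes asparagine synthetase and is among the best studied ATF4 targets. It was counted 3911 and 3404 times in Ogt iKO and 6540 and 6247 times in control. Its levels of 229 and 219 CPM lay below the 423 and 407 CPM of the controls, with no overlap. The log2 fold change was -0.89 (SE 0.0571, adjusted p 6e-06, edgeR), and ran from -0.92 to -0.72 over the 11 alternatives tried.

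Phgdh and Psat1 encode the first and the second enzyme of serine synthesis from a glycolytic intermediate. Psat1, on chromosome 19 from 15905123 to 15925059, fell most of the 10 genes. It was counted 3204 and 2804 times in Ogt iKO, beside 11658 and 11025 times in control. The mean level was 184 CPM ± 4.69 (SD, n = 2) where the controls had 736 CPM ± 24.4 (SD, n = 2). Both treated libraries were far below both controls, and the log2 fold change was -2.00 (SE 0.0597, adjusted p 2.85e-07, edgeR), with 0.840% of genes tested at or below it. In the annotation, 1 processed pseudogene matched 1056 bases of the Psat1 transcript at 91.0% identity.

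Phgdh, on chromosome 3 from 98313171 to 98339969, was counted 723 and 640 times in Ogt iKO and 868 and 833 times in control. Its levels were 42.3 and 41.3 CPM against 56.1 and 54.3 CPM. The groups did not overlap, but the change was small, at -0.40 on the log2 scale (SE 0.0754, adjusted p 0.00164, edgeR). With libraries scaled by their totals it was -0.23 and still past the threshold. These counts are uncertain, because 17 other annotated genes, 16 of them processed pseudogenes, shared at least 500 bases with the Phgdh transcript at 90.6% to 98.7% identity, and how reads matching several places were counted is not given in the sources used here. Of those 17, 2 had rows of their own in the tables.

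Sesn2 and Ddit4 (REDD1) encode inhibitors of mTORC1, the kinase complex that couples growth to nutrients, and both also answer to other stress factors, p53 among them. They differed in direction. Sesn2, on chromosome 4 from 132492804 to 132510456, was counted 2312 and 2141 times after 4-OHT and 2437 and 2365 times without it, or 135 and 138 CPM against 157 and 154 CPM. The small gap between groups exceeded the spread within them. The log2 fold change was -0.19 (SE 0.0558, adjusted p 0.0157, edgeR). This call was lost with libraries scaled by their totals (-0.02, adjusted p 0.752, edgeR), so a change of Sesn2 depends on the scaling. The call was also lost without Ogt iKO replicate 1 (-0.17) and without control replicate 1 (-0.18), at nearly the same size of change.

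Ddit4, on chromosome 10 from 59949675 to 59951770, was counted 2667 and 2648 times after 4-OHT, beside 1428 and 1730 times in the controls. Its levels of 156 and 171 CPM lay above the 92.3 and 113 CPM of the controls. The spread between the controls was wide beside that of Sesn2, yet the groups stayed apart. Ddit4 rose by 0.67 on the log2 scale (SE 0.0946, adjusted p 0.000328, edgeR), and the value ran from 0.53 to 0.84 over the 11 alternatives.

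Ratios within a library do not depend on how libraries are scaled against each other, so the genes were also set against Atf4 within each library. Per 100 Atf4 counts, Asns had 87.3 and 74.7 in Ogt iKO and 79.7 and 79.5 in control, and the groups overlapped. Trib3 had 15.2 and 13.8 per 100 Atf4 counts against 13.5 and 13.7, a gap between groups smaller than that between the treated libraries. Asns and Trib3 counts thus changed in nearly the same proportion as those of Atf4.

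Chac1 and Psat1 fell beyond Atf4. Chac1 had 4.20 and 3.86 per 100 Atf4 counts in Ogt iKO and 8.53 and 8.04 in control. Psat1 had 71.5 and 61.5 against 142 and 140. On the other side, Ddit3 went from 0.743 and 1.22 to 4.00 and 5.02 per 100 Atf4 counts, Phgdh, with its uncertain counts, from 10.6 and 10.6 to 16.1 and 14.0, Ddit4 from 17.4 and 22.0 to 59.6 and 58.1, and Sesn2 from 29.7 and 30.1 to 51.6 and 47.0. These comparisons share the Atf4 counts as denominator. An exact permutation test of 2 libraries against 2 cannot give a p below 0.333, so the ratios are given without a test.

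Other pairs of the 10 genes showed unequal change as well. Per 100 Phgdh counts, Psat1 had 443 and 438 in Ogt iKO against 1343 and 1324 in control, with the doubt about Phgdh counts given above. Per 100 Asns counts, Psat1 had 81.9 and 82.4 against 178 and 176. Per 100 Sesn2 counts, Ddit4 had 115 and 124 against 58.6 and 73.2. Per 100 Chac1 counts, Ddit3 had 95.2 and 130 in Ogt iKO but 8.71 and 15.2 in control.

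**Figure D3:**
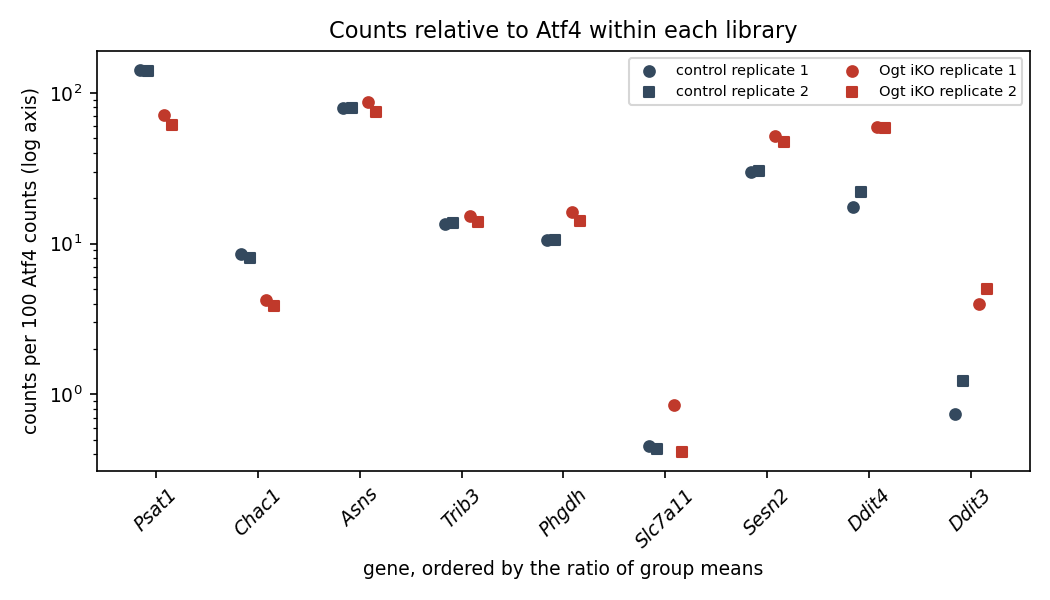
Counts of the other 9 genes per 100 Atf4 counts in the same library (log axis), ordered by the ratio of group means. Psat1 and Chac1 are lower in both Ogt iKO libraries, Asns overlaps between groups, and Sesn2, Ddit4 and Ddit3 are higher. The Slc7a11 points rest on 19 to 38 counts a library.

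Levels were compared between genes per kb of exon, with exon lengths from GENCODE M21, which may not be the annotation the authors counted on. In control the order was Atf4 (221 CPM per kb), Psat1 (173), Asns (152), Ddit4 (58.4), Sesn2 (44.8), Trib3 (33.4), Chac1 (26.4), Phgdh (22.2), Ddit3 (2.98) and Slc7a11 (0.165). No neighbours in that order overlapped in their library values. In Ogt iKO, Atf4 remained highest at 118 CPM per kb ± 9.57 (SD, n = 2), Ddit4 was second at 93.1 ± 5.93 and Asns followed at 81.9 ± 2.41. Psat1 moved from place 2 to place 4, at 43.3 ± 1.10 CPM per kb. Ddit3 (7.37 ± 1.77) and Chac1 (6.82 ± 0.151) overlapped at places 8 and 9, whereas Chac1 stood well above Ddit3 in control.

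**Figure D4:**
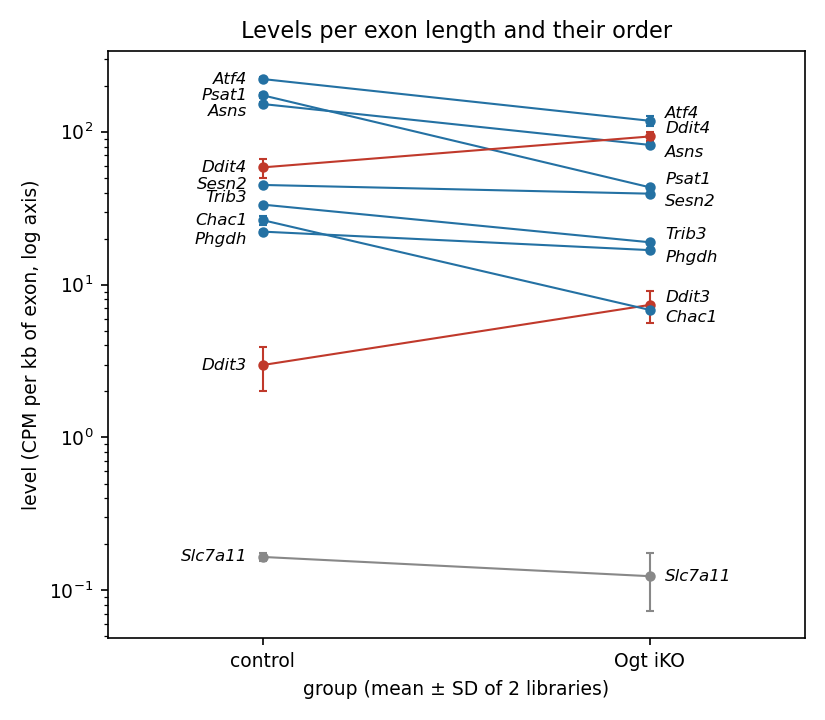
Mean level per kb of exon (log axis) of the 10 genes in control and Ogt iKO, with bars for the SD of 2 libraries. Blue lines are genes called lower, red lines genes called higher and grey is Slc7a11. The lines of Ddit4 and Ddit3 rise across those of Psat1 and Chac1.

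Other genes of the pathway were taken from 9 lists grouped by role. Lists are described by the number of genes called in the fit over all genes and by the median log2 fold change, to be read against 32.0% lower, 33.2% higher and a median of 0.024 over all genes tested. Genes named for the largest changes had an average log2 CPM of 2 or more. Dnajc3, Ppp1r15a and Wars each stand in 2 lists.

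Genes of amino acid and one-carbon metabolism were lower almost throughout. Of 22 tested, 20 fell and 1 rose, and the median on the log2 scale was -0.87. Their summed level was 1969 and 2129 CPM in Ogt iKO and 3733 and 3865 CPM in control. Among the largest falls were those of Pycr1, an enzyme of proline synthesis (-1.93), and Pck2, the mitochondrial PEP carboxykinase (-1.85). Pck2 had 24.6 and 24.7 CPM against 85.6 and 91.7 CPM. Cth, which makes cysteine from cystathionine, was the one that rose (0.40), from 105 and 113 CPM to 133 and 155 CPM.

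All 13 genes listed as ATF4 targets in tRNA charging and tRNA export fell, with a median of -0.75. The largest falls were those of Lars (-1.54), Tars (-1.09) and Yars (-0.87), which charge tRNAs with leucine, threonine and tyrosine. Lars had 191 and 209 CPM in Ogt iKO and 576 and 586 CPM in control. The 8 other cytosolic synthetases, not listed as targets, also fell, by less (median -0.37), led by Farsb (-0.89), Qars (-0.73) and Vars (-0.58). With libraries scaled by totals 5 of those 8 were called lower. The difference between the 2 sets of synthetases was not tested.

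Amino acid transporters were mixed, with 10 of 13 lower, 3 higher and a median of -0.60. Slc7a5, the importer of large neutral amino acids known as LAT1, fell most (-1.28), from 641 and 621 CPM to 257 and 263 CPM. Slc38a1 (-0.84) and the cationic amino acid transporter Slc7a3 (-0.79) followed. The 3 that rose were Slc43a1 (0.56), Slc38a2 (0.41) and Slc7a6 (0.32). Slc38a2, itself a well known ATF4 target, went from 664 and 660 CPM to 838 and 918 CPM.

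Other targets in stress signalling went both ways, with 11 of 24 lower, 7 higher and a median of -0.25, which was -0.10 without control replicate 2 and -0.08 with libraries scaled by totals. Vegfa, the angiogenic growth factor, fell most (-2.03), and Gadd45a (-0.91), a growth arrest gene, and Ndrg1 (-0.85) followed among genes with an average log2 CPM of 2 or more. Those with the largest rises were Tnfrsf10b (1.08), a death receptor that CHOP can induce, Map1lc3b (0.90), which coats autophagosomes, and Bbc3 (0.60), the BH3-only protein PUMA. Tnfrsf10b had 75.7 and 74.5 CPM in Ogt iKO against 35.9 and 34.9 CPM in control. The Gadd45a count is uncertain, as 19.1% of its exon length overlaps an antisense exon.

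**Figure D5:**
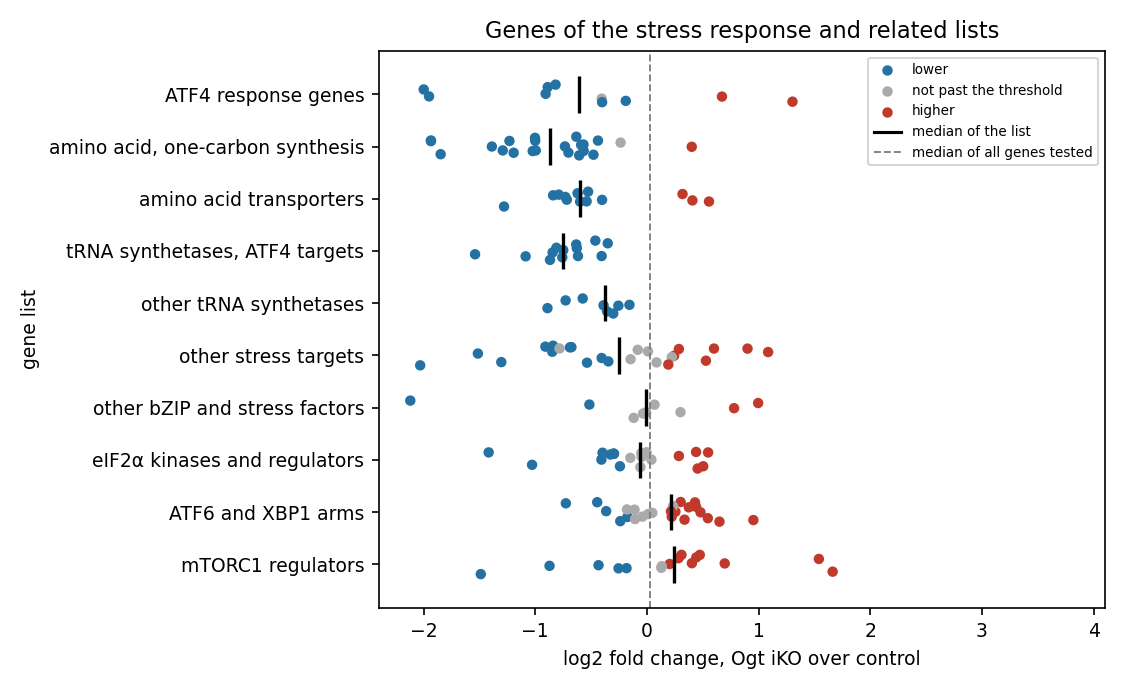
Log2 fold change, Ogt iKO over control, of every tested gene of the 10 genes and of each related list, with the median of the list as a black bar and that of all genes tested as a dashed line (vertical scatter is for legibility). Blue points were lower, red points higher and grey points did not pass. The medians of the synthesis, transporter and synthetase lists lie left of the dashed line, and those of the ATF6 and XBP1 arms and of the mTORC1 regulators lie right of it.

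Among the eIF2α kinases, Eif2ak4 (GCN2), which senses uncharged tRNA, fell by 1.03 on the log2 scale, from 51.2 and 53.3 CPM to 25.3 and 25.9 CPM (adjusted p 1.41e-05, edgeR). Eif2ak2 (PKR), the kinase for double-stranded RNA, rose by 0.55, from 37.7 and 40.7 CPM to 55.6 and 59.0 CPM. Eif2ak3 (PERK), of the endoplasmic reticulum, and Eif2ak1 (HRI), which senses heme and relays mitochondrial stress, did not pass, at -0.15 (SE 0.0978, adjusted p 0.210, edgeR) and -0.05 (SE 0.0631, adjusted p 0.534, edgeR). The phosphatase subunits that reverse the phosphorylation moved apart, with 0.29 for the inducible Ppp1r15a (GADD34) and -0.29 for the constitutive Ppp1r15b. Of the exon lengths of Eif2ak1 and Ppp1r15b, 11.6% and 11.4% overlap antisense exons.

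In the list of kinases, eIF2 subunits and regulators as a whole, 8 of 19 were lower, 5 higher and the median was -0.06. The median was -0.17 without Ogt iKO replicate 2 and -0.11 without control replicate 2. Scaling by library totals, which moved the median of all genes as given above, gave 5 lower and a median of 0.11. Dele1, which carries the mitochondrial signal to HRI, fell most (-1.42), from 74.4 and 77.9 CPM to 27.5 and 29.5 CPM, and Eif2b2, a subunit of the exchange factor of eIF2, changed by -0.41. Oma1, the protease that releases DELE1, rose by 0.45, and Impact, an inhibitor of GCN2 activation, by 0.50.

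Of the other bZIP and stress factors, 9 of 10 passed the low-count filter, 2 were lower and 2 higher, with a median of -0.01, near that of all genes tested. Nupr1, a stress-induced chromatin protein, fell by 2.12 on the log2 scale, from 29.0 and 31.9 CPM to 7.90 and 6.06 CPM. Cebpg, a dimer partner of ATF4, fell by 0.52. Cebpa rose by 1.00 from 4.01 and 2.67 CPM to 7.14 and 6.19 CPM. Atf3, below the level at which genes were otherwise named and given after its values were seen, rose by 0.78, from 2.20 and 2.80 CPM to 4.15 and 4.45 CPM. Of the 2 rises, DESeq2 called 1, and 1 was called without control replicate 1.

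The ATF6 and XBP1 arms of the unfolded protein response, which share upstream stress with PERK, had 12 of 24 genes higher and 5 lower. Their median was 0.22 (0.14 without Ogt iKO replicate 2). Atf6 rose by 0.95, from 68.0 and 69.6 CPM to 131 and 136 CPM. Syvn1, a ubiquitin ligase of the endoplasmic reticulum, rose by 0.65 and the chaperone Dnajb9 by 0.55. Sel1l, the partner of SYVN1, fell by 0.73, Xbp1 by 0.45 and Canx by 0.37. The number lower was 3 with libraries scaled by totals, with DESeq2, without Ogt iKO replicate 1 and without control replicate 2.

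Regulators of mTORC1 that act beside SESN2 and REDD1 were also divided, with 9 of 16 higher, 5 lower and a median of 0.24. Ddit4l, the close relative of Ddit4, rose by 1.66, from 15.5 and 13.5 CPM to 43.5 and 48.5 CPM. Castor2 rose by 1.54 and Akt1s1, a subunit that inhibits the complex, by 0.70. Castor1, an arginine sensor, fell by 1.49, Deptor by 0.87 and the activating GTPase Rheb by 0.43. The number lower was 3 with libraries scaled by totals and without control replicate 2.

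Without Ogt iKO replicate 1, the library with the highest summed fibroblast marker level, the Ogt iKO group held 1 library and the 2 controls alone gave the spread. In that fit the log2 fold changes were -2.02 for Psat1, -1.92 for Chac1, -0.91 for Asns, -0.82 for Atf4 and -0.80 for Trib3. Phgdh changed by -0.41, Sesn2 by -0.17 and Slc7a11 by -0.90, while Ddit3 rose by 1.54 and Ddit4 by 0.74. The part of the fall in stem cell markers in these results was not tested.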

How the data were processed

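The authors deposited 1 table of raw counts per gene symbol for each of 4 libraries, with whole numbers, no normalization and 0 rows that name no gene. STAR, Picard and the build mm10 are named, without versions, per the submitters' processing notes. The annotation, the strand counted and the handling of duplicates and multiply mapped reads are not given in the sources used here. Reads shared by overlapping genes or near-identical copies are therefore uncertain.

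Groups came from the titles in the labels. The test was the quasi-likelihood one of edgeR 4.0.16, run in R 4.3.3 (TMM, filterByExpr, no covariate, all 4 libraries), with Benjamini-Hochberg adjustment over the 14525 genes tested and calls at an adjusted p under 0.05. The common biological coefficient of variation was 7.82%. A count of 3, the most that a count of 0 allows, was 0.175 to 0.196 CPM, for counting error only. The fit was checked on simulated counts in which few genes changed, so the check does not cover changes as widespread as these. Similar transcripts were found with BLAST 2.17.0 (at least 90% identity over 500 bases of GENCODE M21 transcripts). The alternatives tried were DESeq2 1.42.0, scaling by RLE (relative log expression) or by library totals, testing every gene or those at 1 CPM in 2 libraries, a robust spread, the replicate number as a block, and leaving out each library, where the lone library of a group was assumed to vary like the other group.

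The 10 genes and the 9 related and 2 marker lists were chosen with earlier results of these data known, so no test over a list was made. Beside the 10 genes and Ogt, the text names the eIF2α kinases and phosphatase subunits, up to 3 called genes in each direction per list whose average log2 CPM reached 2, and the 2 most abundant markers of each marker list. Mars1 is named because its exon overlaps Ddit3. Outside this rule, Atf3, Col1a1, Pdgfrb, Acta2, Tagln, Lox and Twist1 were named after their values were seen. A gene that the rule names is not reported here.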

Additional observations from a re-analysis of the deposited data

How the results depend on the processing

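Of the 11 log2 fold changes of the 10 genes and Ogt, 10 kept their direction and their side of the threshold under all 11 alternatives, the exception being Sesn2, which lost its call under 3 of them. The 10 genes gave 7 lower (6 under library totals, without Ogt iKO replicate 1 and without control replicate 1) and 2 higher in every alternative. Of 26 counts of calls, 19 stayed within 1.5 times under all alternatives. Those of higher genes among stem cell markers and both sets of tRNA genes were 0 throughout, which meets that rule by definition. Library totals, which move the log2 fold changes of all genes by about the same amount, gave 5 lower for eIF2α kinases and regulators, 5 lower for the synthetases not listed as targets, 3 lower for the ATF6 and XBP1 arms and 3 lower for mTORC1 regulators. Library totals also gave medians of -0.70 for amino acid and one-carbon genes, -0.43 for transporters and -0.58 for tRNA genes listed as targets. DESeq2 gave 1 higher for the other bZIP factors and 3 lower for the ATF6 and XBP1 arms. The robust spread gave 3 fibroblast markers higher, and the replicate block 1 lower. Leaving out 1 library in turn gave 1 to 2 higher for the bZIP factors, 3 to 7 lower for the ATF6 and XBP1 arms, 3 to 5 lower for mTORC1 regulators, and 5 to 22 higher and 0 to 17 lower for fibroblast markers. The cause was not tested. Nothing in the labels pairs replicates of the same number, and the correlation of their deviations from the group means, 0.0859 across genes, does not show whether they shared more than the number. With the replicate block, 4922 genes were higher and 4719 lower against 4827 and 4651 without it, and 7 and 2 of the 10 genes were called. Depth limits Slc7a11 most, with 19 to 38 counts a library, and Ddit3 next, with 61 to 229.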
